A study of Mus musculus with 2 samples.

Results

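The 40 genes described here encode the enzymes that copy DNA and the proteins that work beside them at the replication fork. They were picked by name out of the 32285 features of the mouse reference, with no threshold on a measured value but with earlier results of these data known, and all 40 were found. They cover 8 roles: the MCM helicase (Mcm2, Mcm3, Mcm4, Mcm5, Mcm6 and Mcm7), its loading and activation (Cdc6, Cdt1, Mcm10, Cdc45 and the 4 Gins genes), the polymerases and primase (Pola1, Pola2, Prim1, Prim2, Pold1, Pold2, Pole and Pole2), the sliding clamp and its loader (Pcna, Pclaf and Rfc1 to Rfc5), single-strand binding (Rpa1, Rpa2 and Rpa3), Okazaki fragment joining (Fen1 and Lig1), nucleotide supply (Rrm1, Rrm2 and Dut), and repair, chromatin and cohesion (Ung, Uhrf1 and Esco2). They were read in 2 droplet single-cell RNA-Seq libraries of live YFP+ splenic regulatory T cells (Tregs) from 7-day-old C57BL/6J mice, 1 library of WT mice and 1 of KO mice. WT mice carried the Foxp3-driven Cre alone, and KO mice (Zfp335fl/flFoxp3-Cre) carried it with floxed Zfp335, so that deletion follows Foxp3, the Treg transcription factor. The number of mice per library is not given in the sources used here, and with 1 library per genotype no test between genotypes was possible. A genotype difference and a difference between these 2 libraries cannot be told apart. The intervals in brackets are at the 95% level and cover counting error only.

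Before S phase the MCM ring is loaded onto origins by Cdc6 and Cdt1, and Cdc45 and GINS then turn it into the active helicase. Primase and polymerase alpha start each strand, polymerases epsilon and delta extend it on the PCNA clamp, and FEN1 and ligase I join the lagging-strand fragments. Many of these genes are transcribed at the G1/S transition under E2F factors, and young Tregs are known to divide more than adult ones.

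A droplet barcode was kept when it held 300 or more genes and no more than 5% of its UMIs came from mitochondrial genes, where a UMI marks 1 captured transcript molecule. This left 8053 of 14524 WT barcodes, with a median of 5061 UMIs, and 13767 of 18134 KO barcodes, with a median of 2713 UMIs. The libraries shared 70 barcode sequences. The T barcodes, those in the 9 clusters with T cell receptor and CD3 transcripts, numbered 7470 in WT and 12792 in KO. In them Zfp335 measured 8.19 UMIs per 1000000 (CPM) in WT and 0.807 CPM in KO, a KO to WT ratio of 0.0985 (0.0699 to 0.136), and Foxp3 measured 40.6 and 44.6 CPM. Haemoglobin transcripts, from another lineage, measured 479 CPM in the WT and 3047 CPM in the KO T barcodes, and the neutrophil-lineage list 87.3 and 244 CPM. The part of this free or foreign RNA in the results below was not tested. Levels are CPM of UMIs summed over barcodes, and they are compared between classes and libraries, not between genes.

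The promoters of the members hold E2F-type letters more often than promoters in general. The 250 bases before each gene start were searched on both strands for TTTGGCGC, TTTGCCGC, TTTCGCGC and TTTCCCGC in the RefSeq promoter table (GRCm38.p6), where overlapping matches were counted separately. An entry was held for 32 members, and not for Mcm4, Gins1, Gins2, Gins4, Prim2, Pole, Rfc2 and Esco2. A match stood in 8 of the 32 genes (25%) against 583 of 27025 genes in the whole table (2.16%). The 8 were Mcm5, Mcm6, Mcm7, Cdc6, Gins3, Pola1, Rfc3 and Uhrf1. Those of the helicase subunits Mcm5 and Mcm6, which differ in the results below, and of Pola1, the catalytic subunit of polymerase alpha, lie outside any annotated gene of GENCODE M21 and are shown 5′ to 3′ on the gene's strand, with the matches in capitals. In Mcm5 and Mcm6 a forward and a reverse match overlap, and Mcm6 has a further match 47 bases before its start.
Mcm5, chr8:75109331-75109392, plus strand: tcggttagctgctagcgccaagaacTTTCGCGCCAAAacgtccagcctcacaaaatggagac
Mcm6, chr1:128359720-128359840, minus strand: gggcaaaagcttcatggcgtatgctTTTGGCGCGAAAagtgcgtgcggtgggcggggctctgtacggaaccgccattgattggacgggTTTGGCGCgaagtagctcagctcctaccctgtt
Pola1, chrX:93632261-93632318, minus strand: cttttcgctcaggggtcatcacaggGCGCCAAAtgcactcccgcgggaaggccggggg
A match is a description of the letters and does not show that a factor was bound.

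Cycling barcodes were called from 54 genes that are not members, 26 of S phase (9 of them histone genes) and 28 of G2/M phase. A T barcode was called cycling when these genes held at least 0.5% of its UMIs and at least 3 UMIs. The call took 1797 WT barcodes (24.1%) and 3187 KO barcodes (24.9%), a difference of 0.858 percentage points (-0.373 to 2.08). That difference depended on the call and on depth: it was 10.3 points with the line at 0.25%, -3.73 points with the line at 1%, and 6.66 points among barcodes with at least 1000 UMIs. The line was not a clean one in shallow barcodes. Under 1000 UMIs, 66.4% of WT barcodes and 38.2% of KO barcodes were called cycling, against 2.75% and 13.8% from 2000 to 4000 UMIs, and 591 WT and 1891 KO barcodes lay between 0.4% and 0.6%. The histone calling genes also differed between the libraries, at 0.564 (0.559 to 0.569) of the WT level in cycling and 0.779 (0.762 to 0.795) in non-cycling KO barcodes, while the other S-phase calling genes stood at 0.922 (0.905 to 0.940) in cycling and at 1.14 (1.11 to 1.16) in non-cycling ones. These genes define the 2 classes, so their levels within a class depend on the call. Over all T barcodes, with no call, the histone calling genes measured 3152 CPM in WT and 1691 CPM in KO. The other S-phase calling genes measured 726 and 691 CPM there. A call without histone genes was therefore added after the data had been seen. It used barcodes with at least 2000 UMIs, called cycling with at least 0.5% and quiet with under 0.1% of their UMIs in the 45 calling genes that are not histones. By it 760 of 5944 WT barcodes (12.8%) and 1118 of 7865 KO barcodes (14.2%) were cycling, a difference of 1.43 points (0.275 to 2.57).

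All 40 members were more abundant in cycling than in quiet T barcodes of both libraries when called without histone genes, as were 39.4% of all genes with at least 50 UMIs in WT and 46.7% in KO. Their summed level was 4892 CPM (4852 to 4932) in cycling and 956 CPM (943 to 970) in quiet WT barcodes, and 4354 CPM (4314 to 4395) and 1026 CPM (1012 to 1040) in KO. The highest ratios of cycling to quiet belonged to Esco2, the acetyltransferase that sets sister chromatid cohesion, to Pclaf, a PCNA partner, and to Rrm2, the S-phase subunit of ribonucleotide reductase. Esco2 measured 31.6 (25.2 to 40.2) in WT and 34.3 (27.3 to 43.6) in KO. Pclaf measured 20.6 (19.1 to 22.2) and 21.2 (19.5 to 23.1), so that the libraries overlapped for both. Rrm2 measured 17.3 (15.2 to 19.8) and 14.9 (13.0 to 17.1). Mcm10 followed, at 12 (9.01 to 16.4) and 10.8 (8.05 to 14.8). At the other end stood Rfc1, the large subunit of the clamp loader, at 1.81 (1.68 to 1.96) and 1.87 (1.73 to 2.01), and Rpa1, at 1.84 (1.68 to 2.01) and 1.77 (1.61 to 1.94). The median over the members was 4.61 in WT and 3.74 in KO.

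**Figure D1:**
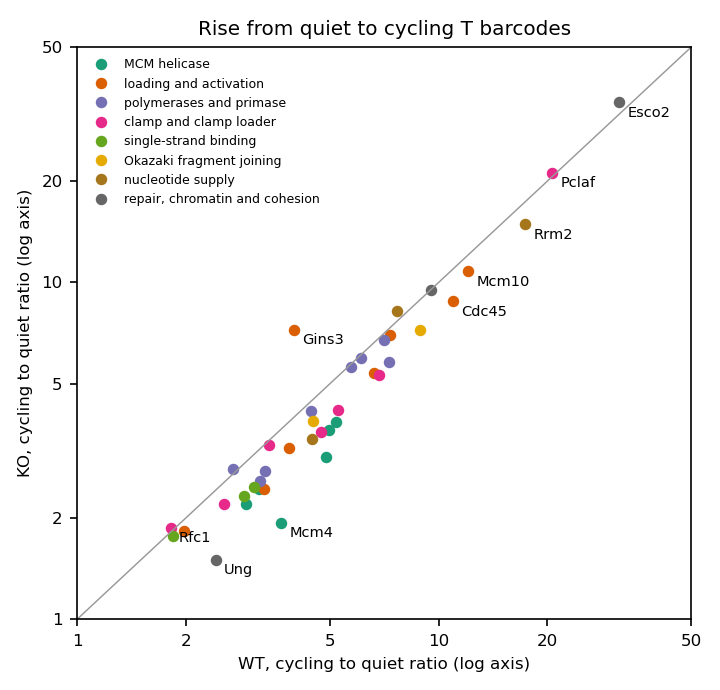
Ratio of each member's CPM in cycling to its CPM in quiet T barcodes (called without histone genes), WT on the x axis and KO on the y axis, both log axes. Each point is 1 gene, coloured by role, and the line marks equal ratios. Esco2, Pclaf and Rrm2 lie at the top in both libraries, and Mcm4, at 3.67 in WT and 1.93 in KO, lies furthest below the line among the helicase genes.

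The same was seen with the 0.5% call, where 40 of 40 members in WT and 39 of 40 in KO were above 1 (background 38.5% and 46.6%), with medians of 3.0 and 2.04. The exception was Ung, the uracil glycosylase that removes uracil from DNA, at 1.55 in WT and 0.822 in KO. Without histone genes in the call Ung was above 1 in KO as well, at 1.5 (1.246 to 1.81), against 2.41 (2.01 to 2.90) in WT.

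Within the cycling barcodes the members followed S phase. Cycling barcodes were split into S-type and G2/M-type by whether their ratio of S to G2/M calling UMIs without histones reached the ratio pooled over both libraries. S-type barcodes made up 46.2% of the cycling WT barcodes (351 of 760) and 45.3% of the KO barcodes (506 of 1118), a difference of -0.925 points (-5.51 to 3.65). With the histone genes left in, among barcodes with at least 2000 UMIs and at least 1% of UMIs in calling genes, the shares were 79.0% and 54.9%, a difference of -24.1 points (-28.6 to -19.4). The 40 members were all higher in S-type than in G2/M-type barcodes in both libraries (background 45.2% in WT and 44.9% in KO), with median ratios of 2.06 in WT and 2.46 in KO. Cdc6, which loads the helicase, was the most S-restricted member, at 7.96 (5.68 to 11.5) in WT and 8.49 (5.77 to 12.9) in KO, and Ung followed at 7.78 (5.35 to 11.7) and 6.11 (4.21 to 9.11). Rfc5, a small clamp-loader subunit, was near the low end at 1.34 (1.19 to 1.52) and 1.59 (1.39 to 1.83).

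When the cycling barcodes were put into 5 bins of equal size by the S share of their calling UMIs, with 141 to 236 barcodes per library and bin, the summed members went from 1922 CPM in the lowest to 7118 CPM in the highest bin of WT, and from 1512 to 7545 CPM in KO. The highest level was in the fifth bin for 37 members in WT and 38 in KO, and in the fourth bin for the rest, with Esco2 and Rrm1 in the fourth bin in both libraries and Fen1 only in WT. The KO library had the wider span. In the lowest bin Okazaki fragment joining (Fen1 and Lig1) measured 133 CPM (116 to 152) in WT and 91.9 CPM (78.6 to 107) in KO, and in the highest bin 555 CPM (528 to 582) and 715 CPM (677 to 754). The sum of the MCM helicase did not cross in this way and was lower in KO in each bin. It measured 844 and 670 CPM in the third bin, and 1483 CPM (1439 to 1528) and 1407 CPM (1354 to 1462) in the highest. The sum of nucleotide supply was also lower in KO in each bin, but in the highest bin not beyond counting error. There it measured 1165 CPM (1126 to 1205) in WT and 1160 CPM (1112 to 1210) in KO. Not all MCM subunits followed their sum. From the lowest to the highest bin Mcm7 rose from 89.3 to 350 CPM in WT and from 66.1 to 394 CPM in KO. Mcm5 rose from 56.2 to 242 CPM in WT and from 52.7 to 268 CPM in KO. Mcm3, Mcm4 and Mcm6 were lower in KO in each bin. Mcm2 was higher in KO in the lowest bin and lower in the highest.

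**Figure D2:**
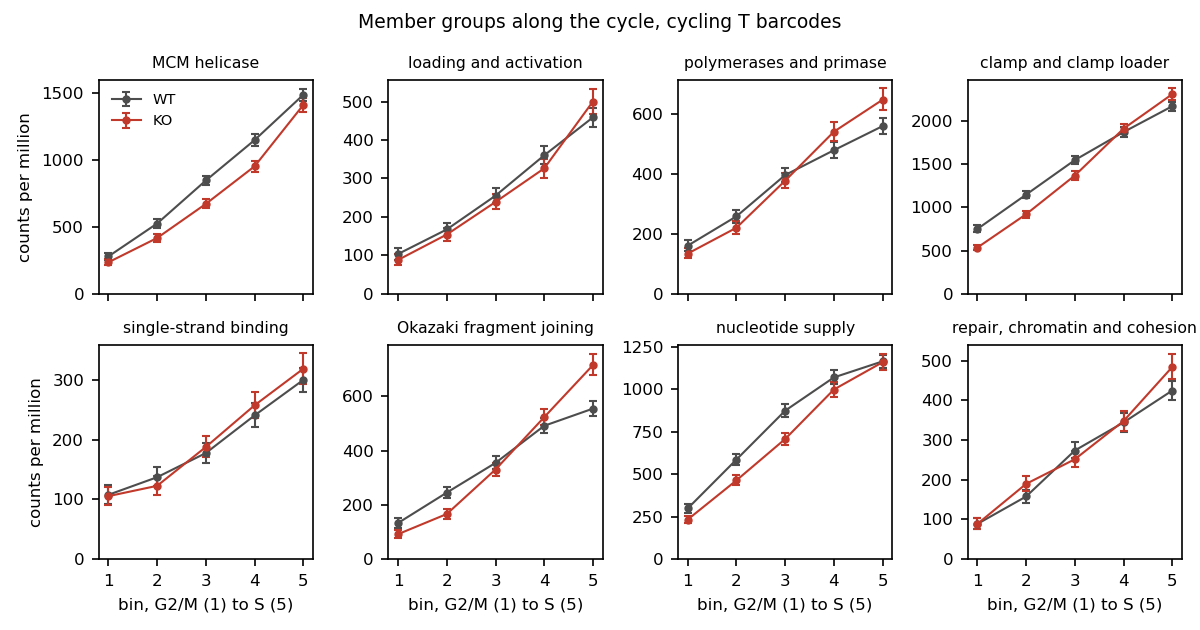
Summed CPM of the 8 member groups in cycling T barcodes (called without histone genes) over 5 bins of the S share of calling UMIs, from G2/M on the left to S on the right. Points are sums per library with 95% counting intervals, WT in grey and KO in red. Each group is lowest in the first bin, and Okazaki fragment joining in KO passes WT between the third and the fourth bin.

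KO and WT libraries were then compared within the classes. Over all T barcodes, with no cycling call, the summed members measured 2578 CPM in WT and 2456 CPM in KO, a ratio of 0.953 (0.945 to 0.960). Of the 40 members 1 was at least 25% higher and 2 at least 20% lower in KO, the same fold in both directions, where 13.7% and 24.7% of all 12195 genes with at least 50 UMIs were. The median log2 ratio was -0.05 for the members and -0.07 for all genes. Its direction turned with the weighting of barcodes and the scaling, to 0.24 when barcodes were thinned to 1000 UMIs, to 0.13 for the mean of single-barcode CPM and to 0.014 with median-ratio scaling. With the 0.5% call the classes went opposite ways. In cycling T barcodes the sum was 4874 CPM in WT and 4113 CPM in KO, a ratio of 0.844 (0.835 to 0.853), and the median log2 ratio was -0.23 against 0.00 for all genes. There 1 member was higher by that fold and 10 lower, with a background of 19.3% and 19.8%. In non-cycling T barcodes the sum was 1497 CPM in WT and 1803 CPM in KO, a ratio of 1.2 (1.19 to 1.22), and the median was 0.25 against -0.08 for all genes. There 17 members were higher by that fold and 0 lower, with a background of 12.8% and 27%. The ratio was over 1 in 39 of the 40 members, Mcm6 being the exception, and in 39.7% of all genes.

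**Figure D3:**
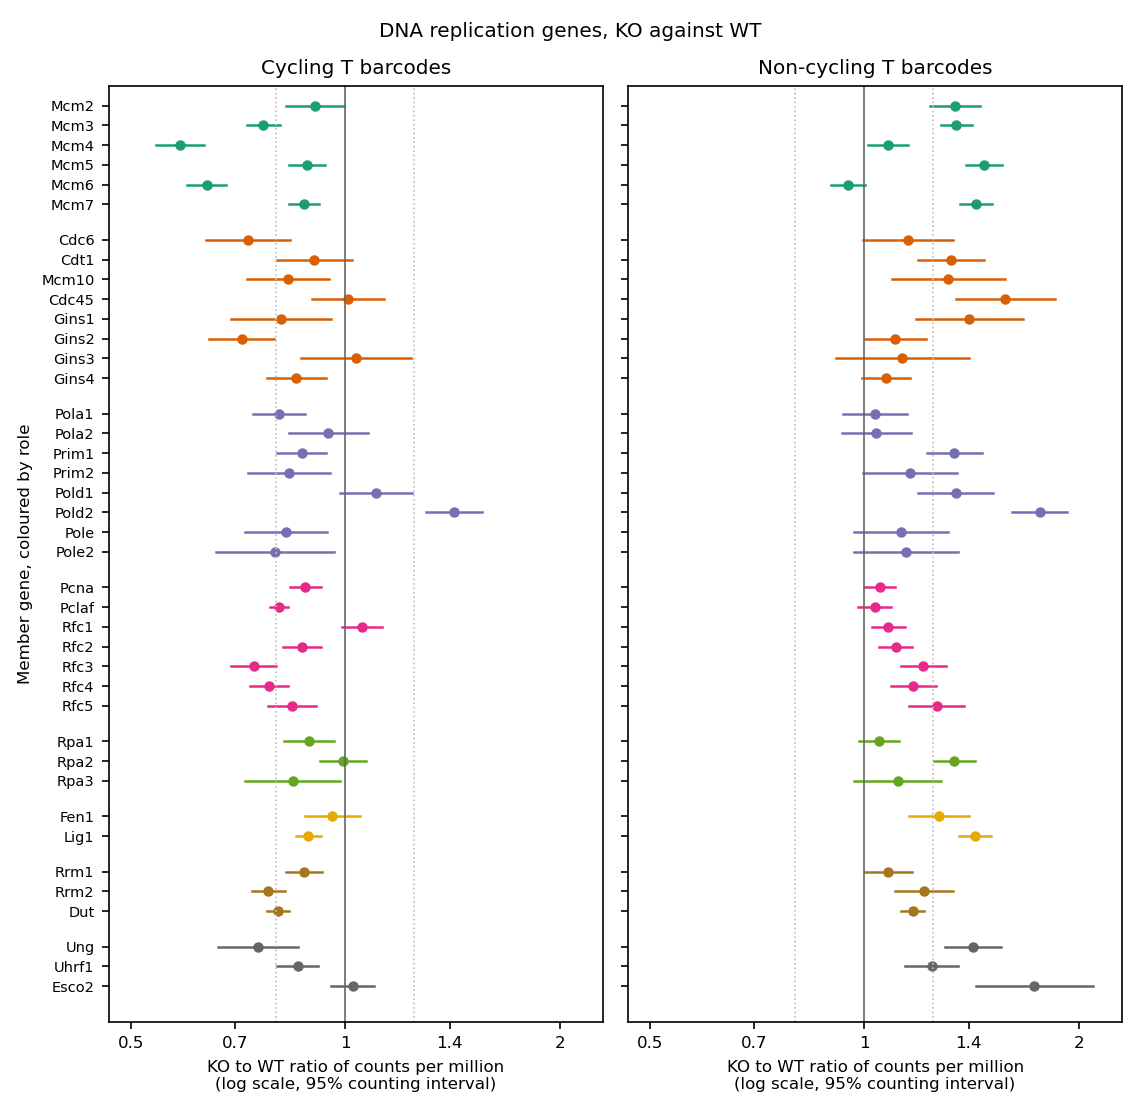
KO to WT ratio of CPM for each of the 40 members in cycling (left) and non-cycling (right) T barcodes under the 0.5% call, on a log scale with 95% counting intervals, coloured by role. Dotted lines mark a level 25% higher and 20% lower. Mcm4 (0.587) and Mcm6 (0.639) are the lowest on the left, and Pold2 is high on both sides (1.42 and 1.76).

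With S-type and G2/M-type barcodes pooled, the lower level in cycling barcodes was seen under each of the 4 calls. The higher level in non-cycling barcodes was seen under 3 of them. With at least 2000 UMIs and a line at 1%, the pooled cycling level was 5228 CPM in WT and 4630 CPM in KO. Under that call neither type was lower in KO, as given below. S-type barcodes made up 79.0% of its cycling barcodes in WT and 54.9% in KO, and the pooled level also depends on these shares. Without histone genes in the call, the sum in cycling barcodes was 0.890 (0.879 to 0.901) of WT, with a median of -0.16 against 0.01 for all genes and 1 member higher and 4 lower (background 19.9% and 18.9%). In quiet barcodes the sum ratio was 1.07 (1.05 to 1.09), with a median of 0.09 against -0.09 and 6 members higher and 1 lower (10.8% and 27.1%). The clusters also differed in their makeup. Clusters 2 and 5 were shallow, with medians of 1208 and 1294.5 UMIs. They held 1086 and 24 WT barcodes, and 3987 and 1340 KO barcodes. The 0.5% call took 66.1% of WT and 37.8% of KO barcodes in cluster 2, and 58.3% and 32.6% in cluster 5. Haemoglobin transcripts measured 23605 CPM in cluster 5. Cluster 3 held 1819 WT and 53 KO barcodes. The ratios under the 0.5% call were not recomputed without clusters 2 and 5. Of the cycling barcodes called without histone genes, 534 WT and 35 KO barcodes lay in cluster 8. In cluster 6 lay 176 WT and 883 KO barcodes so called. Inside cluster 6 the sum was 4844 CPM in WT and 4456 CPM in KO and the median -0.14 against -0.02. Inside cluster 1, the largest T cluster, the quiet barcodes measured 941 CPM (920 to 962) in WT and 932 CPM (915 to 950) in KO, so that the intervals overlapped, and the median of -0.07 stood beside -0.09 for all genes. This held for that call and that cluster. In cluster 4 the quiet barcodes so called measured 1238 CPM (1198 to 1279) in WT and 1363 CPM (1325 to 1402) in KO. With histone genes in the call, barcodes with at least 2000 UMIs and under 0.25% calling UMIs were higher in KO in both clusters, at 992 and 1098 CPM in cluster 1 and at 1770 and 2277 CPM in cluster 4.

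**Figure D4:**
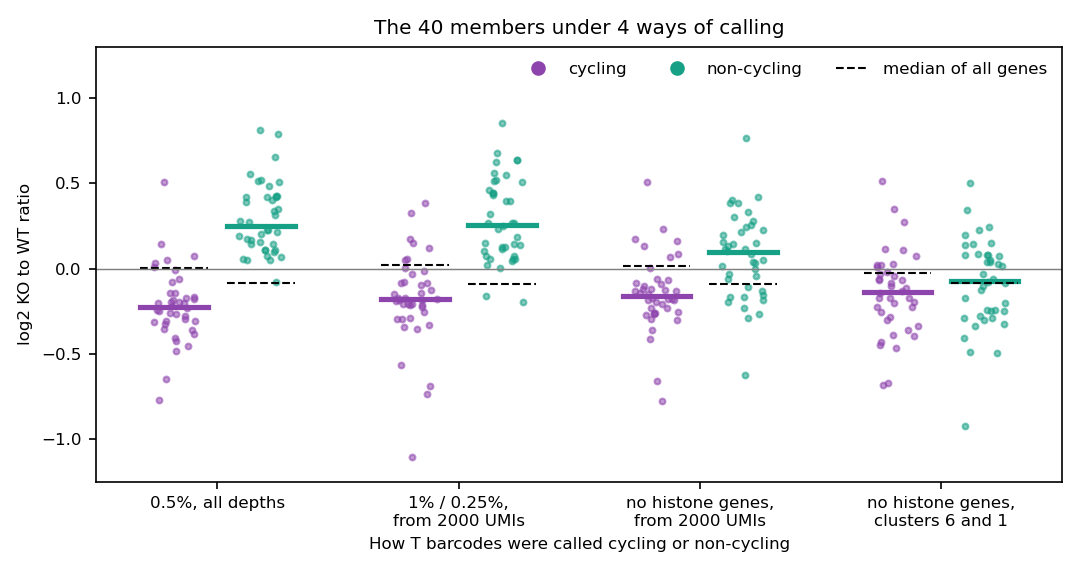
The log2 KO to WT ratio of the 40 members (points) in cycling (purple) and non-cycling (green) T barcodes under 4 ways of calling (the 0.5% call, at least 2000 UMIs with lines at 1% and 0.25%, without histone genes, and the last inside clusters 6 and 1), with the members' median as a thick line and the median of all genes as a dashed line. From left to right the non-cycling median goes from 0.25 to -0.07, and the cycling median from -0.23 to -0.14.

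Split by stage, the values of the cycling barcodes depended on the call. Called without histone genes, S-type barcodes measured 6425 CPM (6361 to 6489) in WT and 6396 CPM (6323 to 6469) in KO, with a median log2 ratio of 0.01. In G2/M-type barcodes the members measured 3265 CPM (3218 to 3312) in WT and 2654 CPM (2612 to 2697) in KO, with a median of -0.20 against 0.02 for all genes, and 2 members were at least 25% higher and 15 at least 20% lower (20.7% and 20.3%). With histone genes in the call, at least 2000 UMIs and a line at 1%, neither type was lower in KO: S-type barcodes measured 5732 CPM (5683 to 5783) in WT and 6030 CPM (5960 to 6101) in KO, and G2/M-type barcodes 2673 CPM (2597 to 2750) and 2739 CPM (2684 to 2794). With the 0.5% call both types were lower in KO. S-type barcodes measured 5659 CPM (5614 to 5704) in WT and 5446 CPM (5394 to 5498) in KO, with a median of -0.06. G2/M-type barcodes measured 3047 CPM (2997 to 3097) and 2643 CPM (2605 to 2682), with a median of -0.21 against -0.01 for all genes. With that call and barcodes thinned to 1000 UMIs, the S-type median was -0.29. In the G2/M-type called without histone genes, the histone calling genes measured 9531 CPM in WT and 4998 CPM in KO, and the other S-phase calling genes 853 and 765 CPM.

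Among the groups, the MCM helicase had the lowest ratio in cycling T barcodes (0.5% call), at 953 CPM in WT and 741 CPM in KO, or 0.778 (0.759 to 0.797). In non-cycling barcodes it measured 371 and 468 CPM, or 1.26 (1.23 to 1.29). The 6 subunits assemble in equal numbers in the ring, yet their transcripts did not keep 1 ratio between the libraries. Mcm4 (ENSMUSG00000022673, chromosome 16, 15623897 to 15637400, minus strand, GRCm38) measured 121 CPM in WT and 70.7 CPM in KO in cycling barcodes, a ratio of 0.587 (0.543 to 0.633), and 51.0 and 55.1 CPM in non-cycling barcodes, a ratio of 1.08 (1.01 to 1.15). Mcm6 (ENSMUSG00000026355, chromosome 1, 128331590 to 128359664, minus strand) measured 164 and 105 CPM in cycling barcodes, a ratio of 0.639 (0.599 to 0.681), and 78.3 and 74.2 CPM in non-cycling ones, a ratio of 0.948 (0.898 to 1.00). The other 4 subunits had ratios from 0.767 (Mcm3) to 0.906 (Mcm2) in cycling barcodes and from 1.34 (Mcm2) to 1.47 (Mcm5) in non-cycling ones. Over all T barcodes Mcm4 stood at 0.812 (0.774 to 0.852) and Mcm6 at 0.784 (0.752 to 0.816), and Mcm7 at 1.07 (1.04 to 1.11).

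Mcm4 and Mcm6 were also set against the UMIs of all 6 subunits, a share that leaves out how many MCM transcripts a class holds. This pair was chosen after its values had been seen. Over all T barcodes WT had 32.1% (31.5 to 32.7) and KO 26.1% (25.6 to 26.6), a difference of -6.00 points (-6.76 to -5.25). In cycling barcodes the share was 29.8% and 23.7%, and in non-cycling barcodes 34.8% and 27.6%. Called without histone genes it was 30.6% and 23.3% in S-type, 27.9% and 22.1% in G2/M-type, and 37.3% and 30.9% in quiet barcodes. In S-type barcodes both subunits held a lower share in KO, Mcm4 at 13.1% and 9.04% and Mcm6 at 17.4% and 14.2%. In quiet barcodes Mcm4 did not differ beyond counting error, at 14.5% (13.5 to 15.6) and 14.2% (13.3 to 15.2). There Mcm6 stood at 22.7% (21.5 to 24.0) and 16.7% (15.6 to 17.7). In quiet barcodes of cluster 1 Mcm4 held 15.8% and 15.7% and Mcm6 19.6% and 15.4%. Within 1 cluster the differences of the pair were smaller, at -4.02 points (-6.62 to -1.53) in cycling barcodes of cluster 6 and -4.33 points (-7.19 to -1.48) in quiet barcodes of cluster 1, both called without histone genes. In other T clusters the interval reached past 0 in the classes below, except in cluster 4 when histone genes were in the call. By the same call it did so in quiet barcodes of cluster 4, at -2.89 points (-6.70 to 0.890), of cluster 3, at 0.983 points (-10.3 to 13.0), and of cluster 7, at 5.01 points (-8.43 to 15.7), the last 2 with 69 and 55 MCM UMIs in the smaller library. In cycling barcodes of cluster 8 with at least 1% calling UMIs it was -2.40 points (-7.47 to 3.32). With histone genes in the call, at least 2000 UMIs and under 0.25% calling UMIs, cluster 4 stood at -4.09 points (-6.42 to -1.78). By that call the intervals of clusters 3 and 7 still reached past 0. Outside T cells, cycling barcodes of the erythroid cluster 9 with at least 1% calling UMIs had 29.9% (27.9 to 31.9) in WT and 24.6% (22.0 to 27.3) in KO, and the few MCM UMIs of the neutrophil-lineage cluster 12 had 26.5% (21.3 to 32.1) and 32.2% (23.9 to 41.4). Cycling barcodes of cluster 11, also outside T cells, had 27.0% in WT and 19.7% in KO when called without histone genes. That difference was -7.37 points (-12.9 to -1.90).

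**Figure D5:**
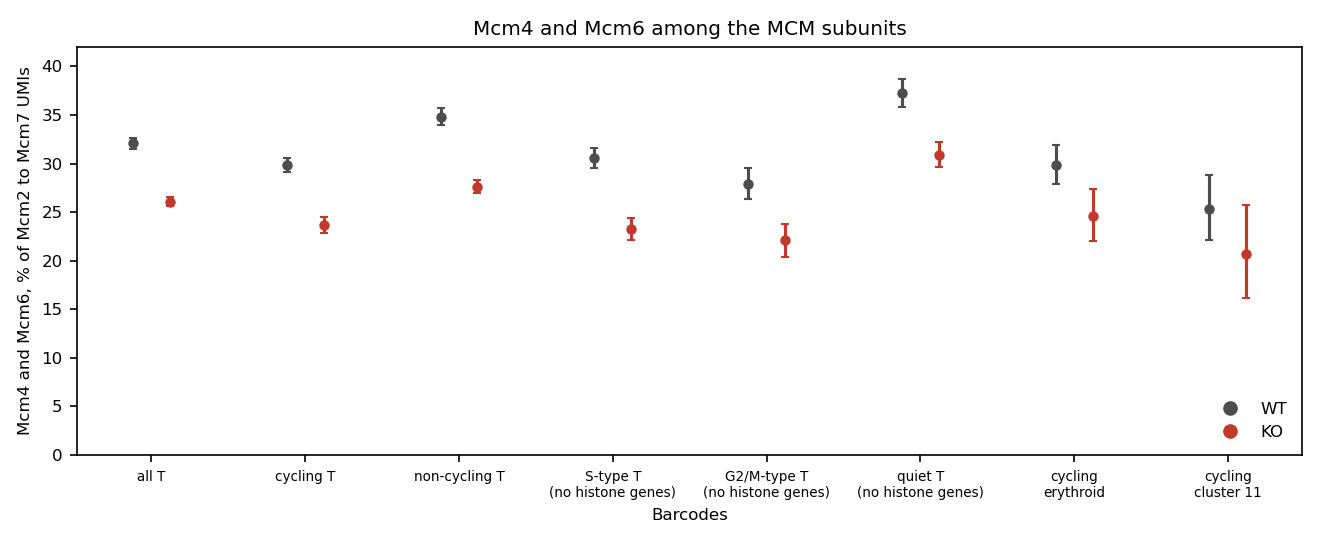
Mcm4 and Mcm6 UMIs as a percentage of the UMIs of Mcm2 to Mcm7 in 8 classes of barcodes, WT in grey and KO in red, with exact 95% binomial intervals and the y axis starting at 0. The KO point lies below the WT point in each class shown, from 26.1% against 32.1% in all T barcodes to 24.6% against 29.9% in cycling erythroid barcodes. The intervals overlap in cluster 11, which is shown here with at least 1% calling UMIs.

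Among the loading and activation factors, Gins2 had the lowest ratio in cycling barcodes (0.5% call), at 55.8 CPM in WT and 39.9 CPM in KO, or 0.715 (0.643 to 0.795), and Gins3 the highest, at 16.6 and 17.1 CPM, or 1.03 (0.866 to 1.24), which includes equality. Gins subunits form 1 complex in equal numbers, and Gins1 and Gins4 lay between them at 0.813 and 0.853. Cdc6 stood at 0.730 (0.638 to 0.835), Mcm10, which helps to activate the helicase, at 0.832 (0.729 to 0.948), Cdt1 at 0.904 (0.801 to 1.02) and Cdc45 at 1.01 (0.898 to 1.13). In non-cycling barcodes Cdc45 had the highest ratio of the group, at 7.5 CPM in WT and 11.8 CPM in KO, or 1.58 (1.35 to 1.85), and Gins4 the lowest, at 1.07 (0.991 to 1.16). Mcm10 and Cdc45 had the widest range between cycling and quiet barcodes in this group, and Gins4 the narrowest, at 1.97 in WT and 1.82 in KO.

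The polymerase group held the member with the highest KO to WT ratio. Pold2 (ENSMUSG00000020471, chromosome 11, 5872180 to 5878292, minus strand), the second subunit of polymerase delta, measured 53.8 CPM in WT and 76.4 CPM in KO in cycling barcodes, or 1.42 (1.3 to 1.56), and 22.3 and 39.2 CPM in non-cycling ones, or 1.76 (1.61 to 1.93). It was the 1 member at least 25% higher over all T barcodes, at 1.54 (1.44 to 1.64), and it stayed above 1 within clusters, at 1.28 (1.04 to 1.59) in cycling barcodes of cluster 6 and 1.42 (1.15 to 1.77) in quiet barcodes of cluster 1. In cycling erythroid barcodes of cluster 9 the Pold2 interval included 1, at 0.886 (0.602 to 1.29). The catalytic subunit Pold1 was at 1.10 (0.982 to 1.24) in cycling and 1.34 (1.19 to 1.52) in non-cycling T barcodes. The other 6 members of the group had ratios under 1 in cycling barcodes, from 0.797 (Pole2) to 0.947 (Pola2), and over 1 in non-cycling ones, from 1.03 (Pola1) to 1.34 (Prim1). Pola1 and Prim1 spanned cycling to quiet most widely in this group, at 7.05 and 7.31 in WT, and Pola2 and Pole2 least, at 2.70 and 3.20.

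For the clamp and its loader, Pcna measured 218 CPM in WT and 192 CPM in KO in cycling barcodes, or 0.878 (0.835 to 0.924), and 88.7 and 93.3 CPM in non-cycling ones. Pclaf measured 691 and 558 CPM in cycling barcodes, or 0.807 (0.784 to 0.831), and 75.7 and 78.3 CPM in non-cycling ones, or 1.03 (0.980 to 1.09). The loader subunits were split. Rfc3 had the lowest ratio, at 114 and 84.7 CPM or 0.744 (0.691 to 0.80), and Rfc1 the highest, at 123 and 130 CPM or 1.05 (0.989 to 1.12), in cycling barcodes. In non-cycling barcodes Rfc5 was highest in the group, at 1.26 (1.16 to 1.38). Rfc2 and Rfc4 stood at 0.869 and 0.781 in cycling barcodes.

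Among the single-strand binding genes, Rpa2 did not differ beyond counting error in the cycling barcodes, at 98.0 and 97.3 CPM or 0.993 (0.923 to 1.07), and was higher in KO in non-cycling ones, at 1.34 (1.253 to 1.43). Rpa1 and Rpa3 measured 0.889 and 0.844 in cycling and 1.05 and 1.11 in non-cycling barcodes. Lig1, the ligase that seals Okazaki fragments, measured 314 CPM in WT and 279 CPM in KO in cycling barcodes, or 0.888 (0.851 to 0.926), and 71.8 and 103 CPM in non-cycling ones, or 1.43 (1.36 to 1.5). The flap nuclease Fen1 measured 0.959 (0.877 to 1.05) and 1.27 (1.16 to 1.4).

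The 3 nucleotide supply genes were lower in the cycling barcodes of KO. Rrm2 measured 206 and 161 CPM, or 0.780 (0.739 to 0.823), Rrm1 161 and 141 CPM, or 0.874 (0.825 to 0.927), and Dut, which removes dUTP, 460 and 370 CPM, or 0.804 (0.776 to 0.833). In non-cycling barcodes their ratios ran from 1.08 (Rrm1) to 1.21 (Rrm2). Ung, which acts on the same base as Dut once it is in DNA, had the lowest ratio of the last group in cycling barcodes, at 36.7 and 27.8 CPM or 0.755 (0.664 to 0.859), and 1.42 (1.3 to 1.56) in non-cycling ones. Esco2 was the highest of that group, at 108 and 111 CPM or 1.02 (0.956 to 1.10) in cycling barcodes, and at 5.19 and 8.97 CPM or 1.73 (1.43 to 2.09) in non-cycling ones. Called without histone genes, Esco2 measured 3.91 and 3.96 CPM in quiet barcodes, or 1.01 (0.730 to 1.4). Uhrf1, which carries DNA methylation through replication, stood at 0.858 (0.803 to 0.916) in cycling and 1.24 (1.14 to 1.35) in non-cycling barcodes.

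A further list held 54 other replication genes, those of origin recognition, kinases, licensing, chromatin assembly and E2F factors. Their median stood near that of the members in cycling barcodes and under it in non-cycling ones. All 54 had at least 50 UMIs in the cycling barcodes under the 0.5% call, where 2 were at least 25% higher and 17 at least 20% lower in KO (background 19.3% and 19.8%) and the median log2 ratio was -0.21. In non-cycling barcodes 9 were higher and 4 lower (12.8% and 27%), with a median of 0.07. By the rule for named genes, the highest ratios in cycling barcodes were those of Cdkn1a, the cyclin-dependent kinase inhibitor p21, at 8.06 CPM in WT and 45.6 CPM in KO or 5.66 (4.67 to 6.91), of Chtf18, part of an alternative clamp loader, at 1.27 (1.10 to 1.48), and of Asf1a, a histone chaperone, at 1.22 (1.09 to 1.36). Cdkn1a was also higher in non-cycling barcodes, at 6.52 and 34.7 CPM. The lowest were Rrm2b, a ribonucleotide reductase subunit used outside S phase, at 13.9 and 7.07 CPM or 0.510 (0.40 to 0.648), Dna2, a nuclease of Okazaki fragment processing, at 0.614 (0.488 to 0.770), and Mtbp, an origin firing factor, at 0.616 (0.479 to 0.787).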

How the data were processed

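The spleens of WT and KO mice aged 7 days gave YFP+ Tregs for 1 droplet library per genotype. The authors made the deposited raw UMI count matrices with Cell Ranger 5.0.1 on mm10, according to the submitters' processing notes, and the gene, mitochondrial and doublet filters of the study had not been applied to these files. The labels give the sort as YFP+7AAD-, and the study's methods add CD4. The totals were 64567991 UMIs in WT and 65480052 in KO.

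Barcodes needed 300 or more genes and no more than 5% of UMIs from mitochondrial genes, and no doublets were removed except in an alternative. After scaling and log transformation, 2000 variable genes, 30 principal components and 20 neighbours gave 16 clusters (Leiden in igraph, resolution 0.5), 9 of them T lineage. UMIs were summed per library and class. Ratios carry exact conditional binomial intervals, sums exact Poisson, shares Clopper-Pearson and differences of shares Newcombe intervals. Genes needed 50 UMIs over both libraries, and 0.5 was added to sums for log2 ratios. UMIs are counted per molecule at transcript ends, so no length scaling was applied. The ratio and interval code was tested on simulated data. By GENCODE M21 positions, no member overlaps another gene of the count matrices on its own strand.

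The members and lists were chosen with earlier results of these data known. Within each role the members with the highest and lowest KO to WT ratios were named, and from the 54 other genes the 3 highest and 3 lowest in cycling T barcodes. The plan also named members by their cycling to non-cycling ratio. The ranges given by role are instead of cycling to quiet barcodes, from the call without histone genes added after the data had been seen. A member counted as higher was at least 25% above, and one counted as lower at least 20% below, the other class. Intervals cannot show how mice or libraries vary. Alternatives changed the filters, doublets, depth, calling line, T definition, weighting, scaling, gene minimum and added count.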

Additional observations from a re-analysis of the deposited data

Results flagged for a closer look

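In 2 members the KO to WT ratio was past the same fold (25% higher or 20% lower) in opposite directions in cycling and non-cycling T barcodes under the 0.5% call. For Mcm3 the ratio in non-cycling barcodes was 1.75 times that in cycling barcodes (161 against 211 CPM in cycling, 108 against 80.5 CPM in non-cycling barcodes, KO against WT). For Ung it was 1.88 times. With 1 library per genotype this difference was not tested. Called without histone genes, neither gene was 20% lower in cycling barcodes, where Mcm3 stood at 0.811 (0.760 to 0.864) and Ung at 0.834 (0.694 to 1.00), while in quiet barcodes Mcm3 stood at 1.31 (1.19 to 1.44) and Ung at 1.34 (1.11 to 1.62).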

How the results depend on the processing

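The 7 summary values below are log2 KO to WT ratios (sum of members, or median over members) and the difference in cycling share. Of 95 recomputed values under 16 settings, 44 stayed within the counting interval of the reported value, 43 moved beyond it with the same sign or around a difference that included 0, and 8 reversed. For a median this interval was centred on the median and took its width from the interval of the summed members. It does not measure the spread over members. The reported values were 0.858 points for the cycling share difference, -0.24 for the cycling sum, 0.27 for the non-cycling sum, -0.23 for the cycling median, 0.25 for the non-cycling median, -0.05 for the all-T median and -0.06 for the S-type median. With up to 10% mitochondrial UMIs, the cycling sum was -0.22, the cycling median was -0.18, the non-cycling median was 0.23, the all-T median was -0.031 and the S-type median was -0.036. With at least 500 genes per barcode, the cycling share difference was 6.93 points and the cycling sum was -0.26. With Scrublet doublets removed, the cycling sum was -0.26, the cycling median was -0.24 and the all-T median was -0.067. With at least 1000 UMIs per barcode, the cycling share difference was 6.66 points. With barcodes thinned to 1000 UMIs, the cycling share difference was 7.97 points, the cycling sum was -0.34, the non-cycling sum was 0.43, the cycling median was -0.25, the non-cycling median was 0.43, the all-T median was 0.24 and the S-type median was -0.29. With a calling line at 0.25%, the cycling share difference was 10.3 points, the cycling sum was -0.20, the non-cycling sum was 0.30, the cycling median was -0.16 and the non-cycling median was 0.28. With a calling line at 1%, the cycling share difference was -3.73 points, the cycling sum was -0.18, the non-cycling sum was 0.16, the cycling median was -0.18, the non-cycling median was 0.13 and the S-type median was 0.064. With T barcodes taken by 2 T-lineage UMIs, the non-cycling median was 0.23 and the all-T median was -0.076. With the mean of single-barcode CPM, the non-cycling sum was 0.35, the non-cycling median was 0.40, the all-T median was 0.13 and the S-type median was -0.11. With median-ratio scaling, the non-cycling sum was 0.35, the non-cycling median was 0.34 and the all-T median was 0.014. With at least 2000 UMIs and lines at 1% and 0.25%, the cycling sum was -0.18, the non-cycling sum was 0.30, the cycling median was -0.18 and the S-type median was 0.069. Called without histone genes, the cycling sum was -0.17, the non-cycling sum was 0.10, the cycling median was -0.16, the non-cycling median was 0.095 and the S-type median was 0.0052. Called so within clusters 6 and 1, the cycling sum was -0.12, the non-cycling sum was -0.013, the cycling median was -0.14 and the non-cycling median was -0.070. The last 3 settings were chosen after seeing the data. With S-type and G2/M-type barcodes pooled, the cycling sum and median were below 0 in each setting. The non-cycling sum and median turned below 0 within cluster 1 under the call without histone genes. There the sum did not differ beyond its counting interval. The all-T and S-type medians reversed in 3 settings each. The cause of these reversals was not tested. All 40 members had at least 50 UMIs in these classes, and a minimum of 20 or 200 UMIs returned the same medians. Those values count among the 44 but are no check of the medians. An added count of 1 kept each median within its interval. Depth limits the call itself, since barcodes under 2000 UMIs have few calling UMIs. No paired analysis was possible because each genotype has 1 library, and for the same reason no library could be left out.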

Other observations

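Histone genes used for calling were lower in the KO library outside T cells too. In cycling barcodes of the erythroid cluster 9 with at least 1% calling UMIs they measured 10876 CPM in WT and 8641 CPM in KO, a ratio of 0.794 (0.772 to 0.817), and in those of cluster 11 they measured 8623 and 6050 CPM, a ratio of 0.702 (0.665 to 0.740). In deep quiet T barcodes, with under 0.25% calling UMIs, the ratio was 0.630 (0.613 to 0.647). These classes were chosen by the same calling genes, so their ratios depend on the call. With no call, the histone calling genes measured 2003 CPM in WT and 832 CPM in KO in the neutrophil-lineage cluster 12. In the globin-high erythroid cluster 10 they measured 615 and 473 CPM.

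Some deep T barcodes under the 0.5% calling line still held members at 0.5% of their UMIs or more. They numbered 115 of 4982 in WT (2.31%, 1.91 to 2.76) and 233 of 6362 in KO (3.66%, 3.21 to 4.15), a difference of 1.35 points (0.725 to 1.98). Myc measured 25.5 CPM in these WT barcodes and 26.9 CPM in these KO barcodes. In all deep T barcodes under that line it measured 21.6 CPM in WT and 26.9 CPM in KO.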
